A study of Homo sapiens with 6 samples.

Results

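The mitochondrial ribosomal protein genes were taken as every row of the count table whose symbol is MRPL or MRPS followed by a number and, for some, a letter from A to C. This rule, which uses names and no measured value, found 78 of the 60591 rows: 49 genes for proteins of the large ribosomal subunit (MRPL) and 29 for proteins of the small subunit (MRPS). All 78 passed the filter on low counts and were among the 20676 genes tested. Their exons lie on 21 chromosomes of GRCh38 (GENCODE 29).

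RNA was sequenced from MDA-MB-231 cells, a line of triple-negative human breast cancer, in a variant that homes to bone and in a 3-dimensional model of fluid flow in loaded bone. Cells of the static group had no flow (0 mL/min), those of the low flow group had 1 mL/min and those of the high flow group had 15 mL/min, with 2 libraries in each group. The line, its variant and the protocol were shared by all 6 libraries, and the sources used here do not give the time under flow. Library totals ran from 17822642 to 53279537 counts, with both static libraries below all 4 flow libraries. Per the column names, static and low flow shared a lane and high flow was in another, and the alignment files of the high flow libraries are also named in another style, so that lane, any step behind that naming and high flow cannot be told apart. The labels also call the cells endothelial. Of 10 endothelial markers 6 had a mean below 1 CPM (CPM being counts scaled to a common library size with edgeR's TMM factors), and CDH5, CLDN5, EMCN and VWF did not exceed 0.221 CPM in any library, while PECAM1 was at 8.32 to 14.1 CPM, TIE1 at 29.9 to 44.2 and ESAM at 24.3 to 37.5. The 7 mesenchymal breast cancer markers, VIM and CD44 among them, summed to 5719 to 7363 CPM, and 1 of the 7 had a mean below 1 CPM.

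Mitochondria keep their own ribosome, which translates the few mRNAs encoded by mitochondrial DNA, all of them for subunits of the respiratory chain and ATP synthase. Its rRNAs are made inside the organelle, whereas its proteins are encoded in the nucleus, made in the cytosol and imported, so assembly needs both genomes. Many of the proteins descend from bacterial ribosomal proteins and others were acquired by the mitochondrion; by a list of homologues, 48 of the 78 genes have a bacterial counterpart and 30 have none. Many cancer cells are known to depend on mitochondrial translation for respiration.

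The sequences before the starts of 5 of the genes are shown here as examples of which motifs such stretches hold; the genes were chosen among those whose levels under flow, given further on, were lower. They are RefSeq sequences (GRCh38.p14), read 5′ to 3′ on the gene's strand and kept clear of annotated exons. Capitals mark a match to 1 of 5 motifs searched on both strands: CCGGAAG (the core bound by ETS factors such as GABP), ATGGCGG (the core of YY1 sites), GCATGCG (the core of NRF1 sites), CACGTG (the E-box bound by MYC among others) and the TATA box, TATAAA. The MRPL3 (chr3:131502984-131503221, minus strand) and MRPS31 (chr13:40771191-40771440, minus strand) stretches each held CCGGAAG.
MRPL3: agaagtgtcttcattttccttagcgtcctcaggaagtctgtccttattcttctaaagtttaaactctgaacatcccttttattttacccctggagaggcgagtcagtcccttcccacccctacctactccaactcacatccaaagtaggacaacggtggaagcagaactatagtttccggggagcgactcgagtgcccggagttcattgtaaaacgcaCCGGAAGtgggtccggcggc
MRPS31: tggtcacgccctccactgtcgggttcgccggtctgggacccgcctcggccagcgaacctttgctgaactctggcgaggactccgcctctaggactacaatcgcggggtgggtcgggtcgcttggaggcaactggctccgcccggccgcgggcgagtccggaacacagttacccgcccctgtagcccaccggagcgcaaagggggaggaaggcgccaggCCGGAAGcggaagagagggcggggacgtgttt
The MRPL17 stretch (chr11:6683402-6683590, minus strand) held GCATGCG on both strands, in matches that overlap each other.
MRPL17: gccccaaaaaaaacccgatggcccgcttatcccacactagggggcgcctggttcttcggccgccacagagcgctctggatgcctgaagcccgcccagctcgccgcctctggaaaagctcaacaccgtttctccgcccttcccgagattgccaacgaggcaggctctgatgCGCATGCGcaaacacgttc
The MRPS15 stretch (chr1:36464438-36464634, minus strand) held GCATGCG and TATAAA, both on the opposite strand.
MRPS15: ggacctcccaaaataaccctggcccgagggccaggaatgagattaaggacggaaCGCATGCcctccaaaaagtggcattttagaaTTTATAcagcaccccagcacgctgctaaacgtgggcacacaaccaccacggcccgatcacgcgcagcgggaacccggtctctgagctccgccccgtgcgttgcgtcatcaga
The MRPL11 stretch (chr11:66438849-66439098, minus strand) held none of the 5 motifs.
MRPL11: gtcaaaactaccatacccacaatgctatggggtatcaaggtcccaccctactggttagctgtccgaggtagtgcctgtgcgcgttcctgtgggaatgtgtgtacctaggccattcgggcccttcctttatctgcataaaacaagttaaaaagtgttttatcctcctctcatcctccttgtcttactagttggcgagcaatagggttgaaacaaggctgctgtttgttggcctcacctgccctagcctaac
A RefSeq promoter, the 300 bases from 250 before to 50 after the start, was given for 69 of the 78 genes. CCGGAAG was in 29 of them (42.0%), against 10.7% of all 27305 promoters and 18.0% of the promoters of tested genes. ATGGCGG was in 24 (34.8%), against 5.72% and 9.58%, and in 20 of these 24 it began 10 to 39 bases after the start. GCATGCG was in 7 (10.1%, against 4.13% and 6.13%), CACGTG in 6 (8.70%, against 7.43% and 9.68%) and TATAAA in 2 (2.90%, against 12.0% and 6.30%), each against all promoters and then those of tested genes. No match of a motif overlapped a match of another. None of the 5 motifs was found in 20 promoters, which says only that these letters are not in this window.

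Without flow and with it, the 78 genes were expressed at moderate and very unequal levels. Their mean over the 6 libraries ran from 9.13 to 157 CPM with a median of 35.8. Per kilobase of transcript (the median length of the gene's protein-coding transcripts), the levels ran from 4.32 to 188 CPM per kb, a 43.5-fold range, with a median of 33.0. The highest level per length was that of MRPL51, a large subunit protein with no bacterial counterpart, at 188 CPM per kb. MRPL33, MRPL49 and MRPS24 followed at 133, 116 and 97.8 CPM per kb. The lowest was MRPS14, a small subunit protein with a bacterial counterpart, at 4.32 CPM per kb, below MRPL57 (6.88), MRPL50 (7.74) and MRPS17 (8.46). The lowest count of any of the 78 genes in any library was 184 and the highest 8249, and the median gene had 728 counts in the first static library and 1843.5 in the second high flow library.

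Summed over the 78 genes, the level was lower in every flow library than in both static libraries. The sums were 3804 and 3623 CPM in the static libraries, 3372 and 3202 under low flow, and 3320 and 3275 under high flow. The means were 3713 ± 128 (SD, n = 2), 3287 ± 120 and 3297 ± 31.3 CPM, a difference from static of -11.5% for low flow and -11.2% for high flow. The large subunit genes summed to 2336 and 2195 CPM without flow, 2057 and 1937 under low flow and 2030 and 1992 under high flow. The small subunit genes summed to 1468 and 1427, 1315 and 1266, and 1290 and 1283 CPM in the same order. The ratio of large to small subunit sums was between 1.53 and 1.59 in all 6 libraries, and its ranges in the 3 groups overlapped. In bulk RNA, fewer cells with such transcripts and fewer transcripts per cell cannot be told apart. Marker lists of other cell types were summed in the same libraries. The 10 luminal breast epithelial markers, of which PGR had no count, summed to 438 and 404 CPM without flow, 504 and 510 under low flow, and 595 and 526 under high flow, higher in every flow library. Of these 10 markers, 3 had a mean below 1 CPM. The 8 bone and fibroblast markers, of which IBSP had no count, summed to 84.5 and 82.0, 85.3 and 78, and 102 and 95.9 CPM, highest under high flow. Of these 8 markers, 4 had a mean below 1 CPM. The 10 endothelial markers summed to 87.8 and 65.8, 82.3 and 95.5, and 94.8 and 91.3 CPM, and the 6 blood markers to between 0.695 and 1.73 CPM. Their part in the sums, and that of depth, was not tested.

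**Figure D1:**
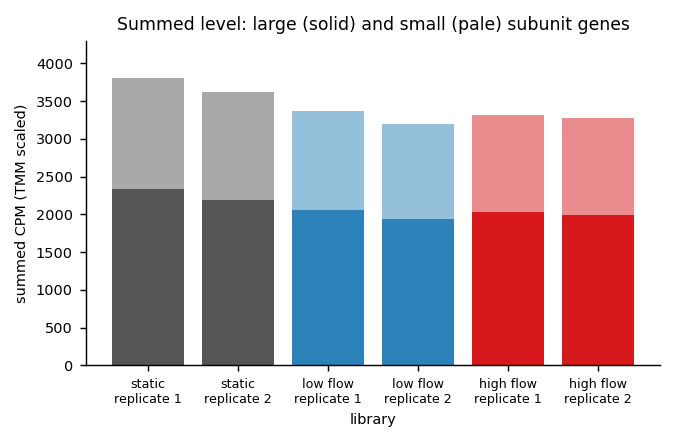
Summed TMM-scaled CPM of the 78 mitochondrial ribosomal protein genes in each of the 6 libraries, with the 49 large subunit genes as the solid lower section and the 29 small subunit genes as the pale upper section of each bar. The 4 flow libraries reach 3202 to 3372 CPM, below the static libraries at 3623 and 3804.

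Low flow was compared with static to ask what the gentler flow changed; these groups share a lane. By the quasi-likelihood test of edgeR, with p-values adjusted by the Benjamini-Hochberg method over all 20676 genes and a threshold of 0.05, 9 of the 78 genes fell (11.5%) and 0 rose. Over all tested genes 3.49% fell and 3.25% rose (6.74% in all), and among tested protein-coding genes 4.30% fell. At an unadjusted p under 0.05, 26 of the 78 were lower and 0 higher, beside 2426 lower and 2427 higher of all 20676 tested genes. DESeq2 called 10 of the 78 lower and 0 higher, beside 856 of all tested genes lower (4.14%) and 805 higher. The median log2 fold change was -0.15, against 0.01 over all tested genes, with a range of -0.54 to 0.10. The estimate was below 0 for 66 of the 78 genes, against 49.0% of all tested genes. Both low flow libraries were below both static libraries for 47 genes (60.3%; 26.3% of all tested genes) and above them for 2, MRPL19 and MRPL42 (27.1% of all tested genes).

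High flow was compared with static to ask what the stronger flow changed. In this comparison 11 of the 78 genes fell (14.1%) and 0 rose, where 6.43% of all tested genes fell and 7.49% rose (13.9% in all) and 7.35% of tested protein-coding genes fell. At an unadjusted p under 0.05, 24 were lower and 0 higher, beside 2963 lower and 3111 higher of all 20676 tested genes. DESeq2 called 11 of the 78 lower and 0 higher, beside 1213 of all tested genes lower (5.87%) and 1547 higher. The median log2 fold change was -0.15, against 0.00 over all tested genes, and the estimates ran from -0.59 to 0.13 with 63 of 78 below 0 (49.7% of all tested genes). Both high flow libraries were below both static libraries for 45 genes (57.7%; 29.4% of all tested genes) and above them for 3, MRPL40, MRPL49 and MRPL54 (29.9%). The low and high flow comparisons share the static libraries, so their values stand side by side and their likeness is not a separate result. All 78 genes had a mean of at least 1 CPM. When only genes at or above that mean were tested, 5.22% of genes fell under low flow and 8.77% under high flow, beside 9 and 16 of the 78.

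**Figure D2:**
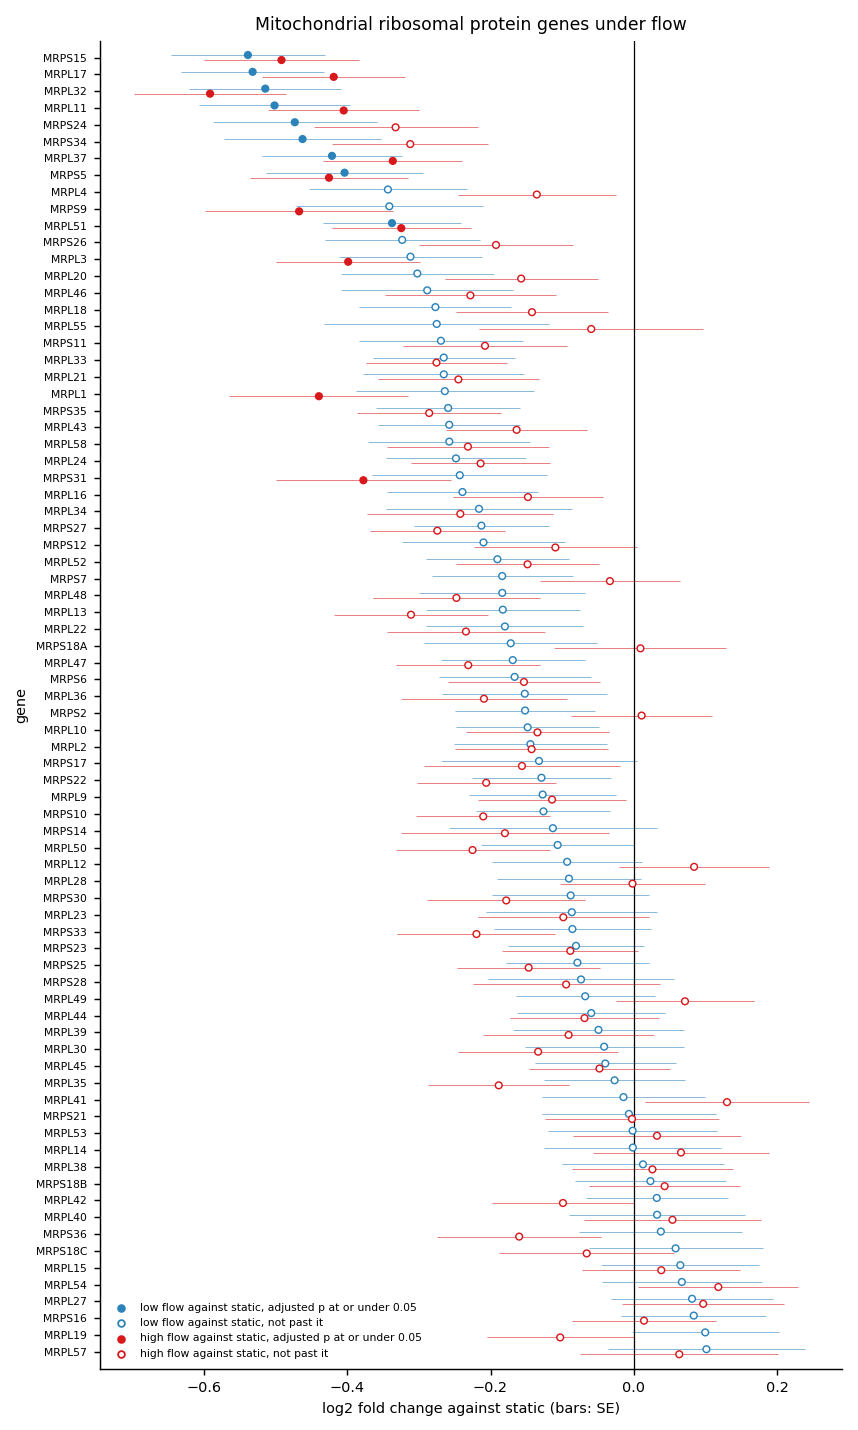
Log2 fold change against static of each of the 78 genes (rows, ordered by the low flow value) under low flow (blue) and high flow (red), with bars of 1 SE; filled points passed an adjusted p of 0.05. The points lie between -0.59 and 0.13, most of them left of 0, and every filled point is left of 0.

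The calls depended on single libraries, and so did the number of the 78 estimates below 0, while no called gene changed sign. With all libraries 66 estimates were below 0 under low flow and 63 under high flow. Without the first static library these were 57 and 56, with median log2 fold changes of -0.11 and -0.11. Leaving out a library leaves its group with 1, so that its spread is assumed to be that of the other groups. Without the second static library 0 of the 9 low flow calls held and MRPL32 was the only 1 of the 11 high flow calls that did, while the medians of the 78 log2 fold changes were -0.20 and -0.19 there, with 73 estimates below 0 in each comparison. Without the first static library, MRPL17, MRPL32 and MRPS15 held under low flow, and these and MRPL3, MRPS5 and MRPS9 held under high flow. Without the second low flow library 1 low flow call held, MRPL17, while without the first 13 genes were called. Without either high flow library, MRPL32 was the only high flow call, and the low flow calls of MRPL51 and MRPS5 were lost. No gene of the 78 was called higher under any of the 15 alternative settings, and MRPL32 was called lower under high flow in all 15. No called gene changed sign under any of the 15: the low flow value of MRPS15, for example, stayed between -0.63 and -0.45.

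The genes were then divided by subunit, as the symbol gives it (MRPS18A and MRPS30 are placed in the large subunit by structures), and by ancestry. Under low flow 5 of 49 large subunit genes fell (10.2%, median log2 fold change of all 49 -0.15) and 4 of 29 small subunit genes (13.8%, median -0.15). Under high flow the numbers were 7 of 49 (14.3%, median -0.14) and 4 of 29 (13.8%, median -0.18). Of the 48 genes with a bacterial counterpart 6 fell under low flow (12.5%, median -0.17) and 8 under high flow (16.7%, median -0.15). Of the 30 without, 3 fell in each comparison (10%, medians -0.09 and -0.16). Over all tested genes 3.49% fell under low flow and 6.43% under high flow. No difference between these classes was tested.

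Among the small subunit proteins with a bacterial counterpart, MRPS15, MRPS5, MRPS9 and MRPS24 fell in at least 1 comparison. MRPS15 (chr1:36455718-36464437), the counterpart of a bacterial protein that binds the small subunit rRNA early in assembly, was at 40.2 and 41.2 CPM in the static libraries, 29.8 and 26.3 under low flow, and 30.3 and 27.7 under high flow. Every flow library lay well below the static libraries, which were close together. This was 1.45-fold lower under low flow (log2 fold change -0.54 ± 0.11 SE, adjusted p = 0.00848) and 1.41-fold lower under high flow (-0.49 ± 0.11, adjusted p = 0.00684). MRPS5 (chr2:95087207-95149434), the counterpart of a bacterial protein that affects decoding accuracy, was at 40.0 and 44.2 CPM without flow, 34.4 and 29.3 under low flow, and 31.9 and 30.8 under high flow. It fell 1.32-fold and 1.34-fold (adjusted p = 0.035 and 0.0167), with no overlap between the static and flow libraries. MRPS9 (chr2:105037983-105099960), the counterpart of a bacterial protein that reaches towards the tRNA, was at 20.6 and 23.9, 19.6 and 15.6, and 15.9 and 16.3 CPM in the same order. It fell 1.38-fold under high flow (adjusted p = 0.0247), and under low flow, where the first library came close to the static ones, the log2 fold change was -0.34 ± 0.13 (adjusted p = 0.121).

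MRPS24 (chr7:43866558-43869893), which lies where mRNA enters the small subunit, was at 90.0 and 79.2 CPM without flow, 67.3 and 54.5 under low flow, and 71.2 and 63.1 under high flow. The flow libraries were all below the static ones, but the spread within groups was wider than for MRPS15. It was 1.39-fold lower under low flow (adjusted p = 0.0219), and under high flow the log2 fold change was -0.33 ± 0.11 (adjusted p = 0.0607). Its value is uncertain as a single gene, because the annotated readthrough gene URGCP-MRPS24 shares 606 exon bases with it on the same strand and had nearly the same counts, 90.3 and 81.0 CPM without flow, 68.3 and 56.8 under low flow and 71.9 and 65.3 under high flow.

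Among the small subunit proteins with no bacterial counterpart, MRPS34 and MRPS31 fell in 1 comparison each. MRPS34 (chr16:1771890-1773155), which is needed for a stable small subunit and is mutated in a form of Leigh syndrome, was at 66.9 and 69.9 CPM without flow, 53.5 and 45.9 under low flow, and 59.6 and 50.7 under high flow. It fell 1.38-fold under low flow (adjusted p = 0.0181), and under high flow the log2 fold change was -0.31 ± 0.11 (adjusted p = 0.0627). MRPS31 (chr13:40729135-40771173) was at 17.3 and 19.0 CPM without flow, 15.8 and 14.9 under low flow, and 13.6 and 14.3 under high flow, a step down in each flow group with no overlap. The fall was 1.3-fold under high flow (adjusted p = 0.0467), and the low flow value was -0.24 ± 0.12 (adjusted p = 0.238). The MRPS31 pseudogenes MRPS31P5 and MRPS31P4 had counts too, at means of 4.66 and 5.34 CPM, so reads of near-identical copies may be divided among these rows.

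Among the large subunit proteins with a bacterial counterpart, MRPL17, MRPL32, MRPL11, MRPL3 and MRPL1 fell in at least 1 comparison. MRPL32 (chr7:42932200-42948958), which is cleaved to its mature form by the m-AAA protease of the inner membrane before it joins the ribosome, was at 43.9 and 47.2 CPM in the static libraries, 34.0 and 29.8 under low flow, and 30.8 and 29.7 under high flow. The groups with flow did not overlap with static, and the high flow libraries were close together. The log2 fold changes were -0.51 ± 0.11 (adjusted p = 0.0102) and -0.59 ± 0.11 (adjusted p = 0.00214), or 1.43-fold and 1.51-fold lower. MRPL17 (chr11:6680782-6683401), whose bacterial counterpart lies beside the peptide exit tunnel, was at 84.7 and 91.2, 64.3 and 57.4, and 68.5 and 63.1 CPM in the same order. It fell 1.45-fold under low flow (adjusted p = 0.00647) and 1.34-fold under high flow (adjusted p = 0.0108).

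MRPL11 (chr11:66435075-66466738) forms part of the stalk base, where translation factors bind the large subunit. It was at 50.6 and 46.2 CPM without flow, 36.3 and 32.0 under low flow, and 37.4 and 35.7 under high flow, and fell 1.42-fold and 1.32-fold (adjusted p = 0.0112 and 0.0174). MRPL1 (chr4:77862520-77952790) belongs to the mobile stalk on the other side, where spent tRNA leaves. It was at 28.3 and 25.4 CPM without flow, 24.4 and 20.2 under low flow, and 18.4 and 21.1 under high flow. The fall was 1.36-fold under high flow (adjusted p = 0.026), and the low flow value was -0.26 ± 0.12 (adjusted p = 0.209). MRPL3 (chr3:131462212-131502983), whose bacterial counterpart reaches towards the peptidyl transferase centre, was at 120 and 128 CPM without flow, 108 and 92.0 under low flow, and 93.5 and 94.8 under high flow. It fell 1.32-fold under high flow (adjusted p = 0.0145), with a low flow value of -0.31 ± 0.10 (adjusted p = 0.0679). For all 3 genes the static and flow libraries did not overlap.

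Among the large subunit proteins with no bacterial counterpart, MRPL37 and MRPL51 fell. MRPL37 (chr1:54184041-54225464) was at 78.8 and 73.4 CPM without flow, 59.1 and 54.4 under low flow, and 61.2 and 59.3 under high flow, which was 1.34-fold and 1.26-fold lower (adjusted p = 0.0165 and 0.0279). MRPL51 (chr12:6491886-6493841), the gene with the highest level per length, was at 122 and 118 CPM without flow, 99.3 and 90.6 under low flow, and 100.0 and 91.7 under high flow. It was 1.26-fold and 1.25-fold lower (adjusted p = 0.0434 and 0.0324). The static libraries were above every flow library for both genes.

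**Figure D3:**
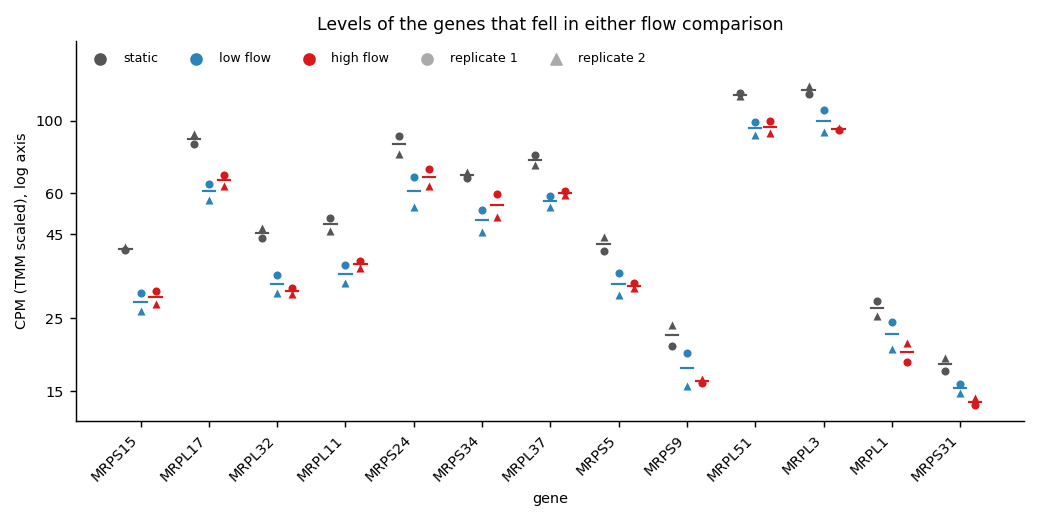
TMM-scaled CPM (log axis) of the 13 genes that fell in at least 1 flow comparison, with circles for replicate 1, triangles for replicate 2 and a line at the mean of each group. Static libraries (grey) lie above the low flow (blue) and high flow (red) libraries for each gene, from MRPS31 at 13.6 to 19.0 CPM up to MRPL3 at 92.0 to 128.

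Some of these calls did not hold under settings other than leaving out a library. The low flow call of MRPL51 and the low flow call of MRPS5 were lost with a block for the replicate number and with only the 4 libraries compared in the fit, and that of MRPS24 with only the 4 libraries. With offsets for transcript length and GC content, 10 genes fell under low flow, among them 8 of the 9, where 4.68% of all tested genes fell. Under high flow 11 fell, among them 6 of the 11, where 4.85% of all tested genes fell. With these offsets MRPL51 was lost in both comparisons, and MRPL1, MRPL3, MRPS9 and MRPS31 under high flow. MRPS31 was also lost with DESeq2, with no expression filter and with the block, and MRPL51 under high flow with no expression filter. With the block and these offsets together, MRPS34 was lost under low flow and MRPL17 under high flow. With the offsets the median log2 fold change of the 78 genes was -0.12 under low flow and -0.07 under high flow, in place of -0.15 in both. Estimates below 0 were 58 under low flow and 55 under high flow, in place of 66 and 63.

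The paralogues MRPS18A, MRPS18B and MRPS18C, which take different positions in the ribosome, did not pass the test. MRPS18B, the most abundant in CPM, was at 57.9 and 51.8 CPM without flow, 51.7 and 59.6 under low flow, and 54.9 and 58.0 under high flow. MRPS18A was at 29.2 and 26.2, 27.0 and 22.2, and 29.0 and 26.7 CPM, and MRPS18C at 19.7 and 16.7, 19.3 and 18.5, and 17.0 and 17.7 CPM in the same order. Static and flow libraries overlapped for all 3, and the log2 fold changes lay between -0.17 and 0.06.

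Proteins with a second role were followed whatever their values. MRPL12, a stalk protein that has been reported to bind the mitochondrial RNA polymerase, was at 66.0 and 57.4 CPM without flow, 61.0 and 54.6 under low flow, and 67.8 and 62.9 under high flow (-0.09 ± 0.10, adjusted p = 0.641, and 0.08 ± 0.10, adjusted p = 0.636). The row AC139530.2 covers 68.2% of its exon bases on the same strand, so its value is uncertain. MRPL58, a peptidyl-tRNA hydrolase built into the large subunit, was at 32.1 and 32.3, 29.3 and 24.6, and 28.3 and 26.6 CPM, below static in every flow library (-0.26 ± 0.11, adjusted p = 0.174, and -0.23 ± 0.11, adjusted p = 0.18). MRPS36, now regarded as a subunit of the 2-oxoglutarate dehydrogenase complex and not of the ribosome, was at 28.0 and 24, 26.5 and 26.7, and 24.1 and 22.3 CPM (0.04 ± 0.11, adjusted p = 0.884, and -0.16 ± 0.11, adjusted p = 0.372). Static and flow libraries of MRPS36 overlapped, and so did those of MRPL12.

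MRPL44 and MRPS22, which are known from disease, and MRPS6 were also given whatever their values. MRPL44, a protein with an RNase-like fold that is mutated in a cardiomyopathy, was at 31.2 and 31.8 CPM without flow, 29.4 and 31.1 under low flow, and 30.0 and 30.1 under high flow. The flow libraries were below the static ones by little (-0.06 ± 0.10, adjusted p = 0.78, and -0.07 ± 0.10, adjusted p = 0.703). MRPS22, which is mutated in a disorder with heart and kidney disease, was at 59.7 and 64.0, 55.9 and 57.3, and 51.8 and 55.5 CPM. MRPS6, the counterpart of a bacterial small subunit protein, was at 35.5 and 33.8, 29.4 and 32.3, and 30.0 and 32.3 CPM. For MRPS22 and MRPS6 no flow library reached the static ones, and neither gene passed the test (adjusted p = 0.452 and 0.166 for MRPS22, 0.365 and 0.355 for MRPS6). MRPS6 shares exon bases on the same strand with SLC5A3 (273 bases) and AP000317.2 (294 bases), so its value is uncertain. SLC5A3, at 70.1 to 104 CPM, rose in both comparisons (0.40 and 0.48, adjusted p = 0.0383 and 0.00937 by edgeR). The values of AP000317.2, at 13.3 to 19.4 CPM, were -0.38 and -0.32, and it did not pass.

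The other genes at the ends of the range of levels per length showed no call. MRPL33, a short protein with a bacterial counterpart, was at 72.7 and 65.2 CPM without flow, 58.5 and 56.3 under low flow, and 54.9 and 59.0 under high flow (adjusted p = 0.112 and 0.0706). MRPL49 was at 60.9 and 56.7, 57.7 and 54.5, and 62.5 and 61.0 CPM, so that its high flow libraries were the highest and its low flow libraries overlapped static. At the low end MRPS14 was at 10.1 and 9.39, 8.89 and 9.14, and 9.01 and 8.22 CPM. MRPL50 was at 28.8 and 26.8, 25.7 and 25.9, and 23.3 and 24.2 CPM, the lowest under high flow. The static libraries were unequal for MRPL57 (17.1 and 12.7 CPM) and MRPS17 (18.9 and 14.5 CPM), and their flow libraries, at 15.2 to 16.0 and 14.5 to 15.9 CPM, overlapped them.

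High flow was compared with low flow to ask where the flow rates differed. None of the 78 genes passed (0 lower and 0 higher by edgeR, 0 by DESeq2, and 0 at an unadjusted p under 0.05 by edgeR), where 0.0919% of all tested genes fell and 0.242% rose (0.334% in all). At an unadjusted p under 0.05, 939 of all 20676 tested genes were lower and 1051 higher. The smallest adjusted p among the 78 was 0.543. The median log2 fold change was 0.00 and the estimates ran from -0.20 to 0.22. The 95% confidence intervals of the 78 differences, not adjusted for the number of genes, together spanned -0.43 to 0.53, with a median half-width of 0.22. Differences smaller than about that size were not detectable for a typical gene. The adjusted threshold asks for larger differences than this, so some above that size may also have been missed. High flow libraries were below both low flow libraries for 14 genes and above both for 16 (21.5% and 21.2% of all tested genes).

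The difference between high and low flow varied with the GC content of the transcripts. Across the 78 genes, which share libraries, the log2 fold change of high against low flow and the GC content of the longest transcript had a Pearson r of 0.73 and a Spearman rho of 0.77. For high flow against static r was 0.38 and rho 0.34, and for low flow against static r was -0.08 and rho -0.13. The same trend was present among tested genes with a transcript match and a mean level above a cut, 13814 in all. Over these rho was 0.633 for high against low flow, 0.433 for high flow against static and 0.0995 for low flow against static. The GC content of the 78 genes ran from 33.5% to 71.9% with a median of 47.7%, near the median of 48.5% over tested genes. The median log2 fold change of high against low flow was -0.07 for the 39 genes under the median GC content and 0.07 for the other 39. MRPS36 (-0.20), MRPL1 (-0.18) and MRPL19 (-0.20) were at the low end, and MRPL12 (0.18), MRPS18A (0.18), MRPL4 (0.21) and MRPL55 (0.22) at the high end; of these MRPL19, MRPL4 and MRPL55 were picked with their values known. The genes called under high flow but not low flow had GC contents of 39.1% to 45.5%, and those called under low flow but not high flow 47.2% to 64.5%. Lane, flow rate and the GC trend cannot be told apart here.

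**Figure D4:**
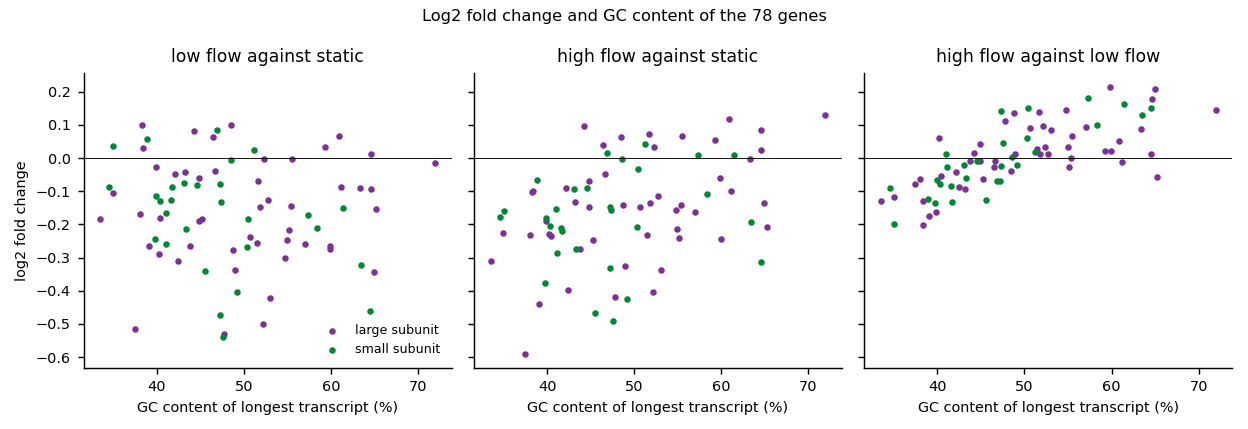
Log2 fold change (vertical axis) against the GC content of the longest transcript in percent (horizontal axis) for the 78 genes in each of the 3 comparisons, with large subunit genes in purple and small subunit genes in green. Pearson r is -0.08 for low flow against static, 0.38 for high flow against static and 0.73 for high against low flow.

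Proteins of the mitochondrial ribosome whose symbols do not follow the MRP pattern were described in the same way. Of 5 tested, 1 fell under low flow (20%, against 3.49% of all tested genes) and 2 under high flow (40%, against 6.43%). With only 5 genes, these shares rest on single genes. The median log2 fold changes of the 5 were -0.25 and -0.21. GADD45GIP1, a large subunit protein, was at 97.0 and 109 CPM without flow, 69.6 and 57.3 under low flow, and 86.3 and 70.5 under high flow. Its log2 fold changes of -0.70 (adjusted p = 0.00487) and -0.39 (adjusted p = 0.0377) stand beside a lowest value among the 78 genes of -0.54 under low flow and -0.59 under high flow. DAP3, a GTP-binding protein of the small subunit, was at 107 and 113 CPM without flow, 92.7 and 86.4 under low flow and 87.0 and 92.3 under high flow, and fell under high flow (-0.30, adjusted p = 0.0458).

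Few of the factors that build the mitochondrial ribosome and work with it passed the test. Of 29 assembly factors tested 1 fell under low flow (3.45%, against 3.49% of all tested genes), and under high flow 2 fell (6.90%, against 6.43%) and 1 rose (3.45%, against 7.49%), shares near or below those of all genes. C1QBP, a matrix protein needed for mitochondrial translation, fell in both (-0.47, adjusted p = 0.0141, and -0.40, adjusted p = 0.0166), NGRN fell under high flow (-0.30, adjusted p = 0.0418) and RPUSD4, a pseudouridine synthase, rose under high flow (0.36, adjusted p = 0.037). Of 21 translation factors 1 fell under low flow (4.76%), and under high flow 2 fell (9.52%) and 1 rose (4.76%), which are single genes near the same shares. SLIRP, which stabilizes mitochondrial mRNAs with LRPPRC, fell in both (-0.47, adjusted p = 0.0159, and -0.41, adjusted p = 0.0167). MTO1, which modifies mitochondrial tRNAs, fell under high flow (-0.36, adjusted p = 0.043), where PDF, the peptide deformylase, rose (0.38, adjusted p = 0.0204). The medians were -0.08 and -0.04 for assembly factors and -0.12 and -0.19 for translation factors.

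Genes for mitochondrial DNA and RNA synthesis and processing had medians of 0.03 and -0.09. Of 23 tested 0 passed under low flow by edgeR (4 lower and 1 higher at an unadjusted p under 0.05), and PNPT1, the mitochondrial polynucleotide phosphorylase, fell under high flow (-0.52, adjusted p = 0.00518). Of 30 genes for protein import, which brings ribosomal proteins into the organelle, 5 fell under low flow, and under high flow 4 fell and 1 rose, with medians of -0.11 and -0.14. The shares that fell were 16.7% and 13.3%, against 4.30% and 7.35% of tested protein-coding genes. TOMM5, a small subunit of the outer membrane channel, fell in both (-0.46, adjusted p = 0.0205, and -0.42, adjusted p = 0.0185), as did HSPA9, the chaperone of the import motor (-0.38, adjusted p = 0.0402, and -0.43, adjusted p = 0.0143). TIMM10B rose under high flow (0.39, adjusted p = 0.0283).

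Of 76 nuclear genes for oxidative phosphorylation, 7 fell and 1 rose under low flow and 7 fell and 0 rose under high flow, with medians of -0.12 and -0.09. The share that fell was 9.21% in each comparison, against 4.30% and 7.35% of tested protein-coding genes. UQCRB of complex III fell by 0.53 and 0.48 on the log2 scale (adjusted p = 0.0109 and 0.00869) and SDHB, the iron-sulphur subunit of complex II, by 0.48 and 0.38 (adjusted p = 0.0116 and 0.0208). SDHC of the same complex rose under low flow (0.38, adjusted p = 0.0464). None of the 13 mitochondrially encoded mRNAs, the messages that the mitochondrial ribosome reads, passed in either comparison (0 at an unadjusted p under 0.05 by edgeR), and their medians were -0.18 and -0.20. Of the mitochondrial rRNAs, MT-RNR1 was at 1332 and 1839 CPM without flow, 2346 and 1649 under low flow, and 3269 and 3397 under high flow, and rose under high flow (1.07, adjusted p = 0.00545). MT-RNR2 did not pass (0.39, adjusted p = 0.437). The libraries were made from poly(A) RNA, and the share of these rRNAs that was captured was not measured.

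**Figure D5:**
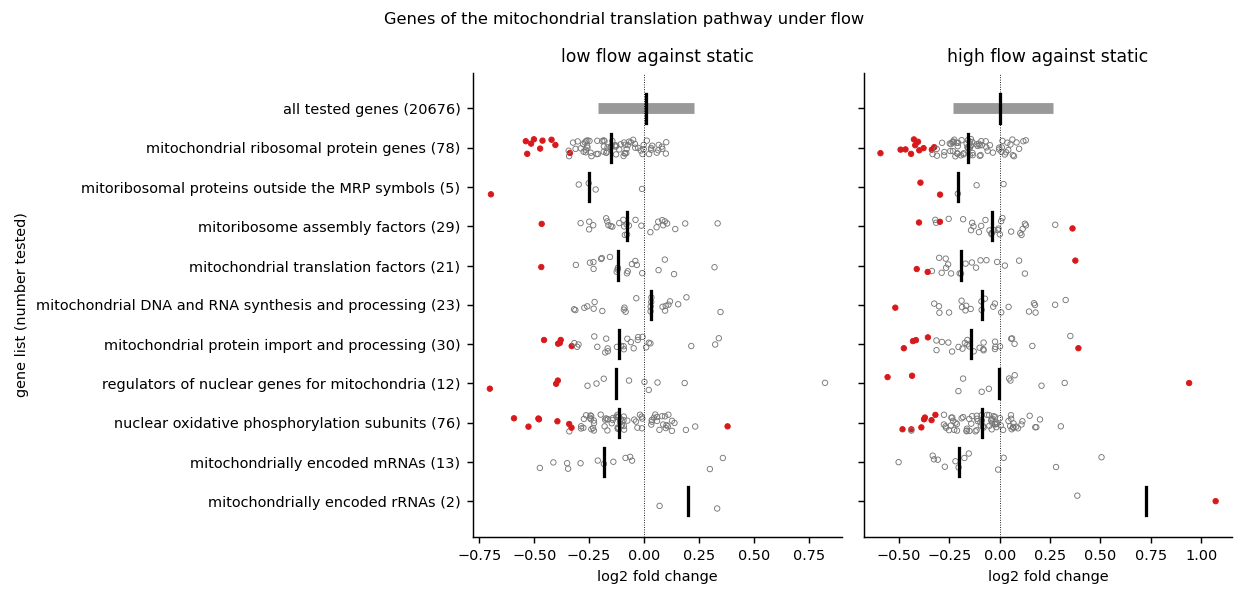
Log2 fold change against static of the tested genes of each list (points; filled red where the adjusted p is at or under 0.05), with a black bar at the median, for low flow (left) and high flow (right). The grey band is the interquartile range of all 20676 tested genes, whose medians are 0.01 and 0.00, and the mitochondrial ribosomal protein genes have a median of -0.15 in both panels.

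Regulators of nuclear genes for mitochondria were given for their own mRNA. Of 12 tested, 3 fell under low flow (25%, against 3.49% of all tested genes) and 0 rose. Under high flow 2 fell (16.7%, against 6.43%) and 1 rose (8.33%, against 7.49%). Not all of those that did not pass are named. GABPB1, which encodes a subunit of the ETS factor GABP, was at 24.4 and 25.4 CPM without flow, 20.1 and 17.9 under low flow, and 18.5 and 18.4 under high flow, and fell in both comparisons (-0.39, adjusted p = 0.0458, and -0.43, adjusted p = 0.018). GABPA, the DNA-binding subunit, did not pass (0.00, adjusted p = 0.995, and -0.20, adjusted p = 0.217), and neither did YY1 (0.02 and 0.05) or NRF1 (-0.26 and -0.09). PPARGC1B, a coactivator of genes for mitochondria, fell in both (-0.70, adjusted p = 0.0197, and -0.56, adjusted p = 0.0334) and TFEB rose under high flow (0.94, adjusted p = 0.0195). MYC was at 52.0 and 50.8 CPM without flow, 42.6 and 35.3 under low flow, and 68.7 and 59.9 under high flow. It fell under low flow (-0.40, adjusted p = 0.0383) and was higher under high than low flow (0.72, adjusted p = 0.00427). Of the 13 genes of the ribosome that fell, 4 had CCGGAAG in their promoter (MRPL3, MRPL51, MRPS31 and MRPS34), and of the other 56 with a promoter sequence 25 did. ATGGCGG was in 7 of the 13 (MRPL1, MRPL32, MRPL37, MRPS9, MRPS15, MRPS24 and MRPS34) and in 17 of the 56. Whether any motif bears on the response was not tested.

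Several of the 78 genes share a start region with a gene on the other strand. For 29 of them, among them 4 of the 13 that fell, a protein-coding gene on the other strand started within 1000 bases of their own start. Some of these neighbours start inside the ribosomal protein gene and overlap it. PSMA2, PELI3 and NCAPD2, named below, are of this kind (upstream distances of -23, -411 and -485 bases). MRPL32 starts beside PSMA2, a proteasome subunit, whose own log2 fold changes were 0.09 and -0.04 (adjusted p = 0.651 and 0.866). Beside MRPL11, PELI3 rose under high flow (0.61, adjusted p = 0.0118), and beside MRPS34, EME2 did (0.47, adjusted p = 0.0231). NCAPD2, beside MRPL51, did not pass (-0.15 and 0.03). MRPL46 and MRPS11, which share a start region with each other, had like values of -0.29 and -0.27 under low flow and -0.23 and -0.21 under high flow, none past the threshold. Of the 29 neighbours tested 5 fell under low flow and 0 rose, and 4 fell and 3 rose under high flow, where 3.49% and 6.43% of all tested genes fell and 3.25% and 7.49% rose. Opposite-strand neighbours were counted apart: where a gene lies within exons of another on the other strand, its count per base was a median of 0.0123 of the other's over 233 pairs, and 0.647 over 63 pairs on the same strand. Exon bases shared on the same strand were found for 16 of the 78 genes, among them MRPS24 with URGCP-MRPS24 and MRPS5 with ZNF514 (8.19% of its exon bases; ZNF514 at 15.6 to 21.8 CPM), and these values are uncertain. The 76 pseudogene rows of the family held counts equal to 0.475% of the counts of the 78 genes, and 48 of them had no count.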

How the data were processed

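The authors deposited raw counts per gene symbol, which were matched to samples by the column names in the labels. RNA was extracted with TRIzol and poly(A) libraries were made with a KAPA stranded kit, per the labels' protocols. STAR, featureCounts and hg38 are named in the submitters' processing notes; versions and annotation are not given in the sources used here. Nothing says that the 2 libraries of a group, numbered as replicates, came from separate cultures. The p-values therefore measure spread among libraries, which may be technical. Libraries of a group were not copies (chi-square per degree of freedom of 13.7 to 34.3).

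The counts of all 6 libraries were fitted together (3 residual degrees of freedom) with edgeR 4.0.16 in R 4.3.3, using TMM scaling, the default filter on low expression (minimum count 10), robust dispersions and two-sided quasi-likelihood tests, with Benjamini-Hochberg adjustment over 20676 genes. CPM values used the TMM factors. Positions, lengths and GC contents came from GENCODE 29 and promoters from RefSeq (GRCh38.p14). The genes, lists and motifs were chosen with earlier results of these data known. Values in every library are given for genes that passed in any comparison, the 4 highest and the 4 lowest per length, and 10 fixed genes. Up to 4 genes per list and comparison are named, mostly by p. SDHC, the 1 oxidative phosphorylation gene that rose under low flow, is named though NDUFS6 had a smaller p there (adjusted p = 0.0403 by edgeR). Some genes that did not pass are also named, such as GABPA, YY1 and NRF1. Alternatives were RLE and upper quartile scaling, other filters, DESeq2 1.42.0, only the 4 libraries compared, a replicate block, length and GC offsets, and leaving out each library.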

Additional observations from a re-analysis of the deposited data

How the results depend on the processing

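With 2 libraries per group and 3 residual degrees of freedom, depth was not the only limit: counts of calls moved with single libraries. Leaving out a library gave 0 to 13 of the 78 genes lower under low flow (9 with all libraries) and 1 to 15 under high flow (11), and the low flow median log2 fold change ran from -0.20 to -0.11. Over all genes it gave 95 to 3111 calls for low flow against static (1394), 300 to 4004 for high flow against static (2878) and 4 to 294 for high against low flow (69). For low flow against static, calls over all genes were 2260 with no expression filter and 604 with only the 4 libraries compared. With the replicate block they were 907, with 7 of the 78 genes lower. The replicate numbers are not said to mark anything shared. The deviations of same-numbered libraries correlated at -0.144, -0.0514 and 0.138, which cannot tell whether these libraries share more than a number. For high flow against static, length and GC offsets gave a median of -0.0748, and the block with these offsets gave -0.0751 and 1371 calls. For high against low flow, calls were 241 with no filter, 116 with DESeq2, 36 with the 4 libraries, 39 with the offsets and 38 with the offsets and the block. With library totals alone the mean summed level under high flow was 3250 CPM, against 3297 with TMM. The cause of these shifts was not tested. The remaining settings left the counts of the 78 genes within 1.5 times. None of the calls among the 78 genes reversed its direction under any of the 15 settings. Directions under these settings are not given for named genes without a call or for genes outside the 78. The median of high against low flow, near 0, was -0.02 without the second low flow library and 0.04 without the first. The static libraries were the shallowest.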
